A study of Mus musculus with 12 samples.

Results

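The comparison described here set bone-marrow monocytes of Nr4a3 KO mice after 2 days of culture with GM-CSF and IL-4 (KO day 2, 2 libraries) against freshly sorted, undifferentiated monocytes of Nr4a3 KO mice (KO monocytes, 2 libraries), which are 4 of the 12 RNA libraries of the series. The mice were of a C57BL/6 background, and cells of both groups carry the same KO genotype, so the comparison follows culture within cells labelled Nr4a3 KO. The other 8 libraries came from KO cells after 1 day of culture and from wild-type (WT) cells in the same 3 states, and the WT cells at day 2 and WT monocytes serve below to ask whether the KO change differed from the WT change. The labels name neither the KO allele nor the number of mice behind a library, and they give 2 independent experiments per group. Poly(A) RNA was sequenced, and expression is given as CPM, the reads of a gene relative to the library's reads in genes, with TMM scaling between libraries.

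GM-CSF and IL-4 are the classical pair of cytokines for growing dendritic cells from monocytes. GM-CSF signals through a receptor with a shared beta chain to the transcription factor STAT5, and IL-4 signals through its receptor to STAT6. A monocyte that becomes a dendritic cell stops making molecules for life in the blood and takes up antigen presentation on MHC class II molecules, costimulation and the secretion of T cell-attracting chemokines. NR4A3 belongs to the NR4A family of nuclear receptors without a known ligand, whose genes are switched on quickly by many stimuli.

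The KO day 2 libraries held 5905266 and 12116249 reads in genes, against 13764588 and 14431691 reads in KO monocytes. KO day 2 replicate 1 is the shallowest library of the series, so its values for low genes carry the largest counting error. The 2 KO day 2 libraries also differ by sex. Replicate 1 held 794 CPM of Xist, a noncoding RNA made in female cells, and 0.167 CPM of the Y-linked Ddx3y, whereas replicate 2 held 0.0818 CPM of Xist and 59.9 CPM of Ddx3y. Both KO monocyte libraries were male by these genes, with 0 reads of Xist and with 52.4 and 34.5 CPM of Ddx3y. Outside the comparison, 2 stray libraries, the one labelled KO day 1 replicate 1 and replicate 2 of the WT monocytes, stood apart from the other library of their group on the first principal component (52.9% of the variance), at -1.60 against -42.6 and at 139.8 against 115.6. The files of the KO day 2 and KO monocyte groups carry different dates, and what the dates mark is not stated, so culture and experiment cannot be told apart. In bulk RNA, fewer cells of a type and less RNA per cell cannot be told apart either.

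Of the 3 NR4A genes, Nr4a1 fell in KO day 2 cells, Nr4a2 did not pass the test, and reads of the targeted gene itself rose to a low level. Nr4a3 had 39 and 19.3 CPM in KO day 2 cells, against 0.928 and 0 CPM in KO monocytes (log2 fold change 5.94 ± 1.53, adjusted p = 0.0234). WT day 2 cells had far more, 1287 and 1358 CPM. Both WT day 2 libraries lay far above both KO day 2 libraries. Still, the direct edgeR test of KO day 2 against WT day 2 did not pass (log2 fold change -5.51 ± 1.36, adjusted p = 0.389). That test did not pair libraries by replicate number. Same-numbered KO and WT day 2 libraries deviated alike from their group means (correlation 0.657 across all genes tested), and a paired test of this contrast was not run. The reads that map to Nr4a3 in KO cells do not show whether a functional transcript is made, since the altered part of the gene is not named in the labels. Nr4a1, a close relative of Nr4a3 that is needed for nonclassical monocytes, had 1.17 and 2.78 CPM in KO day 2 cells, against 703 and 277 CPM in KO monocytes (log2 fold change -7.87 ± 1.05, adjusted p = 0.000843). Both KO day 2 libraries lay far below both monocyte libraries. Nr4a2 had 10 and 14.1 CPM in KO day 2 cells, against 21.4 and 4.25 CPM in KO monocytes, with 1 monocyte library above and 1 below both day 2 libraries (log2 fold change -0.08 ± 1.3, adjusted p = 0.974). For Nr4a3 the adjusted p was 0.0733 leaving out KO day 2 replicate 1, 0.0635 leaving out KO monocytes replicate 1 and 0.163 leaving out KO monocytes replicate 2.

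A large part of the transcriptome differed between KO day 2 cells and KO monocytes. With edgeR's quasi-likelihood test and Benjamini-Hochberg adjustment over 14034 genes, 1396 genes (9.95%) were higher in KO day 2 cells and 1063 genes (7.57%) were lower at an adjusted p under 0.05. These percentages are the background against which each gene list below is read. The genes called higher made up 21.7% of all CPM in KO day 2 cells and 3.71% in KO monocytes, and those called lower made up 4.54% in KO day 2 cells and 18.6% in KO monocytes. A log2 fold change of at least 5 was reached by 488 of the genes called higher and by 74 of those called lower. Of the genes called higher, 269 had 0 reads in both KO monocyte libraries, and 18 of the genes called lower had 0 reads in both KO day 2 libraries. The day 2 and monocyte libraries did not overlap for any gene called. Over all genes tested, 37.5% lay higher and 32.2% lower without overlap. The median log2 fold change over all genes tested was 0.08. Where a list below had no call in a direction, 0 to 3 of its members passed in that direction at an unadjusted p under 0.05, and 0 to 2 with DESeq2. Each left-out KO day 2 or KO monocyte library lowered the counts by more than 1.5 times. They were 875 higher and 476 lower leaving out KO day 2 replicate 1, and 738 and 400 leaving out KO day 2 replicate 2. Leaving out KO monocytes replicate 1 gave 664 and 560, and leaving out KO monocytes replicate 2 gave 527 and 435. With 1 WT day 2 or WT monocyte library left out, 1138 to 1919 genes were higher and 897 to 1422 lower. With only the compared libraries in the fit, 1952 genes were higher and 1706 lower, and in the fit lacking the 2 stray libraries 2002 were higher and 1844 lower. For some genes named below, 1 left-out library or another fit took the adjusted p over the threshold, and that value is given beside them.

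**Figure D1:**
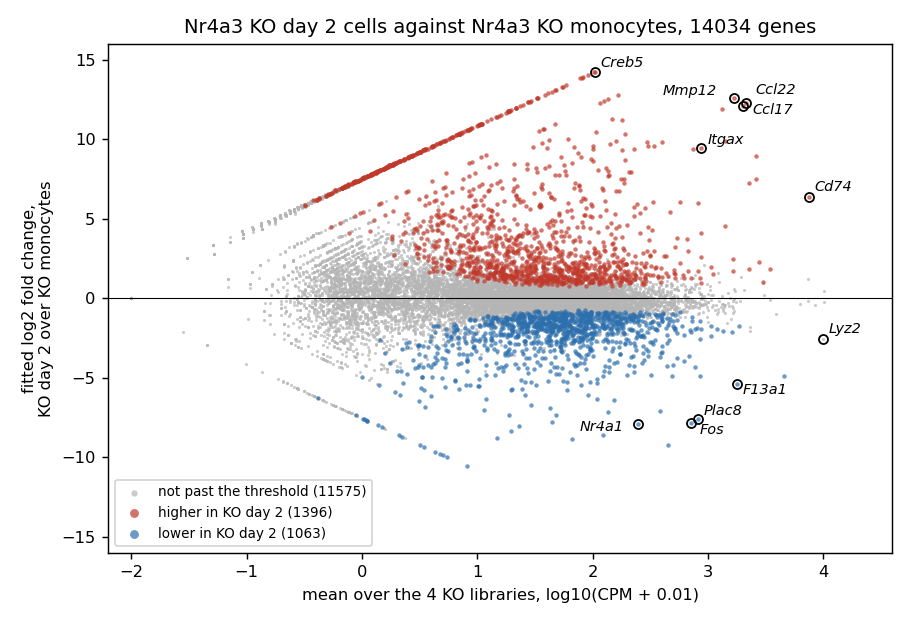
Log2 fold change of KO day 2 cells over KO monocytes (vertical axis) against the mean over the 4 KO libraries as log10(CPM + 0.01) (horizontal axis) for the 14034 genes tested. Red points are the 1396 genes called higher and blue points the 1063 called lower at an adjusted p under 0.05; the largest changes lie above 0, where 488 genes called higher passed a log2 fold change of 5.

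Genes of the classical, Ly6C-high monocyte fell. Of 20 classical monocyte genes tested, 13 were lower and none higher, with a median log2 fold change of -4.23. F13a1, the A chain of coagulation factor XIII, had 87.9 and 77.5 CPM in KO day 2 cells, against 3429 and 3570.2 CPM in KO monocytes (log2 fold change -5.4 ± 0.41, adjusted p = 3.75e-05). Fcnb, the lectin ficolin B, had 0.50 and 0.818 CPM in KO day 2 cells, against 76.5 and 92 CPM in KO monocytes (log2 fold change -6.9 ± 0.60, adjusted p = 7.18e-05). For both genes the 2 libraries of a group lay close together and the groups far apart. Hpgd, the enzyme that breaks down prostaglandins, had 0.167 and 0 CPM in KO day 2 cells, against 34.2 and 24.7 CPM in KO monocytes (log2 fold change -8.78 ± 0.97, adjusted p = 0.000308). Fn1, fibronectin, had 470.2 and 122 CPM in KO day 2 cells, against 9151 and 8585 CPM in KO monocytes (log2 fold change -4.91 ± 0.96, adjusted p = 0.00632). Ly6c2, which encodes the surface protein Ly6C, had 93.2 and 18.1 CPM in KO day 2 cells, against 1412 and 1900.3 CPM in KO monocytes (log2 fold change -4.9 ± 1.08, adjusted p = 0.011). Ccr2, the receptor that brings monocytes out of the marrow, had 606 and 359 CPM in KO day 2 cells, against 1842 and 1441 CPM in KO monocytes, a smaller difference (log2 fold change -1.77 ± 0.53, adjusted p = 0.0421). Not every gene of the list passed the test. Chil3, a chitinase-like protein, had 1119 and 1322 CPM in KO day 2 cells, against 1507 and 1686 CPM in KO monocytes (adjusted p = 0.807). The lysozyme gene Lyz2 had 4799 and 934 CPM in KO day 2 cells, against 15090.0 and 19232 CPM in KO monocytes and did not pass the test either (adjusted p = 0.0934). For Ly6c2 the adjusted p was 0.0665 leaving out KO day 2 replicate 2. For Ccr2 the adjusted p was 0.0777 leaving out KO day 2 replicate 1, 0.238 leaving out KO day 2 replicate 2, 0.159 leaving out KO monocytes replicate 1 and 0.109 leaving out KO monocytes replicate 2.

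Nonclassical monocyte genes fell as well. Of 14 tested, 9 were lower and none higher, with a median of -3.31. Besides Nr4a1, the list's calls included Ace, angiotensin-converting enzyme, with 1.33 and 1.47 CPM in KO day 2 cells, against 37.1 and 88.6 CPM in KO monocytes (log2 fold change -5.46 ± 0.55, adjusted p = 0.000283). Ceacam1, an adhesion receptor, had 11 and 11.9 CPM in KO day 2 cells, against 173 and 149 CPM in KO monocytes (log2 fold change -3.81 ± 0.43, adjusted p = 0.000326). Spn, the sialomucin CD43, had 78.9 and 93.5 CPM in KO day 2 cells, against 407 and 496 CPM in KO monocytes (log2 fold change -2.39 ± 0.39, adjusted p = 0.00262). Cx3cr1, the fractalkine receptor that marks nonclassical monocytes, had 4.34 and 0.0818 CPM in KO day 2 cells, against 279 and 265 CPM in KO monocytes (log2 fold change -7.16 ± 1.57, adjusted p = 0.0108). The 2 KO day 2 libraries differed more in Cx3cr1 than the monocyte libraries did. For Cx3cr1 the adjusted p was 0.0634 leaving out KO day 2 replicate 2.

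The 12 largest falls among genes with a mean of at least 5 CPM, chosen by the naming rule below, held further genes. Among them was Prtn3 of the neutrophil list. Prtn3, the granule protease proteinase 3, had 0.167 and 0.90 CPM in KO day 2 cells, against 234 and 261 CPM in KO monocytes (log2 fold change -8.61 ± 0.53, adjusted p = 1.84e-05). Plac8 had 9.5 and 7.2 CPM in KO day 2 cells, against 1521 and 1739.7 CPM in KO monocytes (log2 fold change -7.62 ± 1.06, adjusted p = 0.00103). Bmx, a Tec family kinase, had 0.167 and 0.0818 CPM in KO day 2 cells, against 36.6 and 41.2 CPM in KO monocytes, Thbd, the thrombin receptor thrombomodulin, had 0.333 and 0.164 CPM in KO day 2 cells, against 46.1 and 28.9 CPM in KO monocytes, and Krt80, a keratin, had 0.333 and 0.245 CPM in KO day 2 cells, against 135 and 129.9 CPM in KO monocytes. All lay near the floor in KO day 2 cells. Ms4a8a, of the membrane-spanning MS4A family, had 0.167 and 0.164 CPM in KO day 2 cells, against 47.4 and 44.8 CPM in KO monocytes (log2 fold change -8.04 ± 0.80, adjusted p = 0.000153). Rspo1, a secreted Wnt agonist, had 0 reads in both KO day 2 libraries and 11.9 and 9.86 CPM in KO monocytes, and was at least 65.9-fold lower against 3 counts over the 2 day 2 libraries (adjusted p = 0.0086). For Rspo1 the adjusted p was 0.0507 leaving out KO day 2 replicate 2.

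The 12 largest rises all had 0 reads in both KO monocyte libraries, so their size is given as a bound against 3 counts over those 2 libraries. Creb5, a transcription factor of the CREB/ATF family, had 189 and 229.6 CPM in KO day 2 cells and was at least 1961-fold higher (adjusted p = 1.84e-05). Ramp3, a membrane protein that pairs with the calcitonin receptor-like receptor, had 162 and 247 CPM and was at least 1914-fold higher (adjusted p = 0.000411). P2rx5, an ion channel opened by ATP, had 133 and 195 CPM in KO day 2 cells and was at least 1535-fold higher (adjusted p = 4.47e-05). These 3 genes were alike in both day 2 libraries. Klrb1b, an inhibitory lectin-like receptor first known from NK cells, had 112 and 202 CPM in KO day 2 cells, and Serpinb6b, an intracellular serine protease inhibitor, had 109 and 81.6 CPM. Kcp, a secreted modulator of BMP signals, had 82.5 and 152 CPM, and the small GTPase gene Rhoc had 77.5 and 114 CPM. Mgll, the lipase that splits monoacylglycerols, had 39.7 and 180.1 CPM, and Trp53i11 had 27.8 and 188 CPM, with replicate 2 higher by more than 4-fold in both. H2-M2, a nonclassical MHC class I gene, went the other way with 162 and 15.7 CPM in KO day 2 cells. Itgae and Tnfrsf9, the remaining genes, are given with their lists. For H2-M2 the adjusted p was 0.0664 leaving out KO monocytes replicate 1, 0.0713 leaving out KO monocytes replicate 2, 0.0575 with DESeq2 and 0.0548 in the fit lacking the 2 stray libraries.

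Per kilobase of exon, the most read genes of KO day 2 cells were Cd74, Tmsb4x, Ccl17, Actb and Lgals3, and those of KO monocytes were Tmsb4x, Actb, Lyz2, Psap and Eef1a1. The actin gene Actb and the actin-binding thymosin gene Tmsb4x did not pass the test, at -0.21 ± 0.34 and 0.45 ± 0.64 on the log2 scale (adjusted p = 0.721 and 0.678). Lgals3, the sugar-binding protein galectin 3, rose, with 5031 and 5826 CPM in KO day 2 cells, against 1315 and 1766 CPM in KO monocytes (log2 fold change 1.82 ± 0.40, adjusted p = 0.0106). For Lgals3 the adjusted p was 0.0572 leaving out KO day 2 replicate 2, 0.0965 leaving out KO monocytes replicate 1 and 0.056 leaving out KO monocytes replicate 2.

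**Figure D2:**
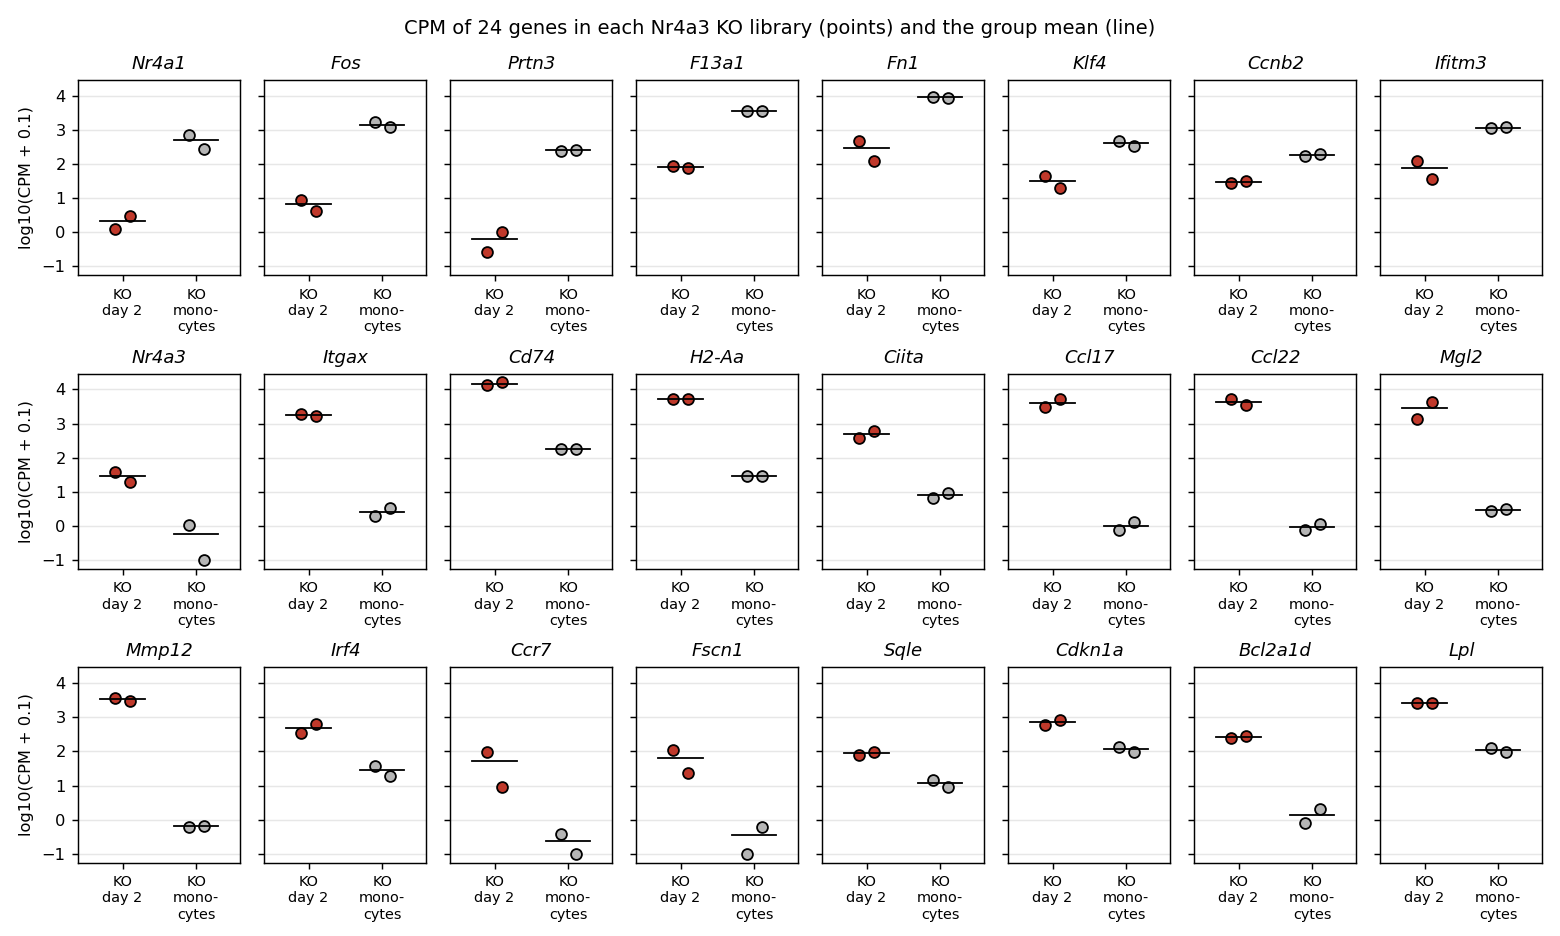
CPM of 24 genes, as log10(CPM + 0.1), in each KO day 2 library (left, red) and each KO monocyte library (right, grey), with the group mean as a line. The first row holds genes with both day 2 libraries below both monocyte libraries, and in the other rows both day 2 libraries lie above.

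Dendritic cell genes rose, though not as a block. Of 25 dendritic cell identity genes tested, 12 were higher and 2 lower, with a median of 3.25. Itgax, the integrin CD11c that defines dendritic cells in flow cytometry, had 1852 and 1654 CPM in KO day 2 cells, against 1.79 and 3.26 CPM in KO monocytes (log2 fold change 9.43 ± 0.58, adjusted p = 1.84e-05). Zbtb46, a transcription factor of classical dendritic cells, had 60.2 and 85.5 CPM in KO day 2 cells, against 0.143 and 0 CPM in KO monocytes (log2 fold change 9.8 ± 1.09, adjusted p = 0.000309). Mgl2, the lectin CD301b of type 2 dendritic cells, had 1327 and 4272 CPM in KO day 2 cells, against 2.71 and 3.12 CPM in KO monocytes (log2 fold change 9.9 ± 1.1, adjusted p = 0.000309). Day 2 replicate 2 held more than 3 times the Mgl2 of replicate 1, and both lay far above the monocytes. Itgae, the CD103 integrin chain, had 91 and 275 CPM in KO day 2 cells and 0 reads in KO monocytes, at least 1715-fold higher (adjusted p = 0.000619). Batf3 and Irf8, transcription factors of the type 1 dendritic cell, parted. Batf3 had 58.5 and 57.3 CPM in KO day 2 cells, against 3.21 and 4.96 CPM in KO monocytes (log2 fold change 3.82 ± 0.90, adjusted p = 0.0155), and Irf8 had 52.7 and 7.53 CPM in KO day 2 cells, against 455 and 562 CPM in KO monocytes (log2 fold change -4.09 ± 1.01, adjusted p = 0.0191). Flt3, the growth factor receptor of the dendritic cell lineage in the steady state, had 7.34 and 2.04 CPM in KO day 2 cells, against 12.1 and 9.86 CPM in KO monocytes (adjusted p = 0.361). Sirpa, a receptor shared by monocytes and type 2 dendritic cells, had 1102 and 419.6 CPM in KO day 2 cells, against 966 and 959 CPM in KO monocytes (adjusted p = 0.728). For Batf3 the adjusted p was 0.118 leaving out KO monocytes replicate 1 and 0.0936 leaving out KO monocytes replicate 2. For Irf8 the adjusted p was 0.0871 leaving out KO day 2 replicate 2, 0.0542 leaving out KO monocytes replicate 1 and 0.0732 leaving out KO monocytes replicate 2.

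Among 19 C-type lectins tested, 6 were higher and 1 lower. Clec4n, the receptor Dectin-2, had 1475 and 1468 CPM in KO day 2 cells, against 0.857 and 3.4 CPM in KO monocytes (log2 fold change 9.42 ± 0.80, adjusted p = 6.17e-05), and Ly75, the endocytic receptor DEC-205, had 160.2 and 154 CPM in KO day 2 cells, against 7.14 and 4.18 CPM in KO monocytes (log2 fold change 4.79 ± 0.45, adjusted p = 0.00011). Of 15 integrins tested, 2 were higher, Itgax and Itgae, and 2 were lower. Itgb7, the beta chain that partners Itgae, was one of these, with 54.9 and 33.6 CPM in KO day 2 cells, against 816 and 856 CPM in KO monocytes (log2 fold change -4.24 ± 0.71, adjusted p = 0.00279). Thus the 2 chains of the CD103 integrin moved in opposite directions. The other, Itga4, had 148 and 26.4 CPM in KO day 2 cells, against 567 and 366 CPM in KO monocytes (log2 fold change -2.42 ± 0.74, adjusted p = 0.0454). For Itga4 the adjusted p was 0.173 leaving out KO day 2 replicate 2, 0.178 leaving out KO monocytes replicate 1, 0.0984 leaving out KO monocytes replicate 2, 0.0811 with only the compared libraries in the fit and 0.069 in the fit lacking the 2 stray libraries.

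MHC class II genes rose, the most read of them with little spread between libraries. Of 15 class II genes tested, 9 were higher and none lower, and 6 did not pass the test, with a median of 4.5. The short promoter stretches below, from RefSeq on GRCm38.p6, show a sequence that 3 of them share. The capitals mark TGATTGG, the inverted CCAAT letters of the Y box known from class II promoters, and H2-DMb2 was chosen after its values were seen.
H2-Aa, chr17:34287824-34287930, minus strand: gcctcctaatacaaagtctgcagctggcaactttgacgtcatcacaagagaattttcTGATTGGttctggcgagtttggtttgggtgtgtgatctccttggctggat
H2-Eb1, chr17:34305749-34305866, plus strand: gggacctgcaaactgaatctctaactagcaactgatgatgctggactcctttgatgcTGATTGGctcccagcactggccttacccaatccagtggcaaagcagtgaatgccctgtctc
H2-DMb2, chr17:34145100-34145219, plus strand: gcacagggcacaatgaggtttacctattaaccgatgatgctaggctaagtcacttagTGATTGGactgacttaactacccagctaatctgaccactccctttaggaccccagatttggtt
These letters were searched on both strands in the 250 bases before the start site. They were present in 8 of the 11 class II genes with a promoter in the table (72.7%) and in 2067 of all 27025 promoters (7.65%). The match is a description of the letters, and no binding was measured.

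H2-Aa and H2-Ab1 encode the 2 chains of the I-A molecule, and H2-Eb1 the beta chain of I-E. H2-Aa had 5093 and 5342 CPM in KO day 2 cells, against 28.3 and 29.2 CPM in KO monocytes (log2 fold change 7.5 ± 0.56, adjusted p = 3.40e-05). H2-Ab1 had 4027 and 4969 CPM in KO day 2 cells, against 30.4 and 28.6 CPM in KO monocytes (log2 fold change 7.25 ± 0.52, adjusted p = 3.40e-05), and H2-Eb1 had 5264 and 5112 CPM in KO day 2 cells, against 9.86 and 10.9 CPM in KO monocytes (log2 fold change 8.96 ± 0.60, adjusted p = 1.94e-05). All 4 libraries of these genes fell into 2 tight pairs. Cd74, the invariant chain that escorts class II molecules, had 13671 and 16073 CPM in KO day 2 cells, against 178 and 183 CPM in KO monocytes (log2 fold change 6.36 ± 0.42, adjusted p = 1.84e-05). Ciita, the coactivator that switches on class II genes, had 374 and 588 CPM in KO day 2 cells, against 6.64 and 9.36 CPM in KO monocytes (log2 fold change 5.91 ± 0.45, adjusted p = 3.88e-05). H2-DMa and H2-DMb2, chains of the peptide-loading molecule H2-DM, had smaller differences. H2-DMa had 288 and 508 CPM in KO day 2 cells, against 152 and 181 CPM in KO monocytes (log2 fold change 1.26 ± 0.35, adjusted p = 0.0307), and H2-DMb2 had 80.9 and 237 CPM in KO day 2 cells, against 7.5 and 6.59 CPM in KO monocytes (log2 fold change 4.5 ± 0.61, adjusted p = 0.000919). Rfx5, which binds class II promoters, had 32.3 and 25.7 CPM in KO day 2 cells, against 21.1 and 26.3 CPM in KO monocytes with overlapping groups (adjusted p = 0.559). Ctss, cathepsin S, which trims the invariant chain, had 2070.1 and 1298 CPM in KO day 2 cells, against 1332 and 1276 CPM in KO monocytes (adjusted p = 0.579). For H2-DMa the adjusted p was 0.29 leaving out KO day 2 replicate 2, 0.179 leaving out KO monocytes replicate 1 and 0.13 leaving out KO monocytes replicate 2.

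The MHC class I list gave few calls. H2-M2, the nonclassical class I gene called higher and given above, is not on this list. Of 20 tested, none was higher and 1 was lower, with a median of -0.37. The gene called was Psmb10, a subunit of the immunoproteasome, with 71.2 and 49.7 CPM in KO day 2 cells, against 149 and 219 CPM in KO monocytes (log2 fold change -1.61 ± 0.33, adjusted p = 0.00771). H2-D1, a class I heavy chain, had 1341 and 935 CPM in KO day 2 cells, against 2031 and 2248 CPM in KO monocytes (adjusted p = 0.0645), and B2m, the light chain, had 1489 and 827 CPM in KO day 2 cells, against 1429 and 1552 CPM in KO monocytes (adjusted p = 0.648). For Psmb10 the adjusted p was 0.0787 leaving out KO day 2 replicate 2 and 0.0724 leaving out KO monocytes replicate 2.

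Genes of the IL-4 response list were among the strongest rises. IL-4 and GM-CSF were given together, so their parts in a rise cannot be told apart. The lists also share genes. Ccl22 and Pdcd1lg2 are on the dendritic cell maturation list too, and Cish on the GM-CSF list. Mgl2 is also on the dendritic cell identity and C-type lectin lists. Of 27 genes tested, 16 were higher and none lower, with a median of 6.26, or 4.61 with genes at 0 reads in KO monocytes set to their bound. The promoters of Ccl17 and Pdcd1lg2 are shown since both genes were close to silent in KO monocytes and high at day 2, and both hold TTC and GAA with any 4 bases between them, the spacing known for STAT6, marked in capitals.
Ccl17, chr8:94810244-94810363, plus strand: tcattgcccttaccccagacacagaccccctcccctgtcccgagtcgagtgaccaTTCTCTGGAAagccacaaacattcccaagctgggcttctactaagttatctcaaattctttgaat
Pdcd1lg2, chr19:29410782-29410901, plus strand: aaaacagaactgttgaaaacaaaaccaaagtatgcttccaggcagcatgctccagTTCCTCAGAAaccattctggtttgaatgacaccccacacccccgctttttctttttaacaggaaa
The letters, which read the same on both strands, were in 3 of the 19 promoters of the list present in the table (15.8%) and in 5.87% of all 27025. A match names no site. The STAT5 spacing, with 3 bases between TTC and GAA, searched in the same way, was in 1 of 14 promoters of the GM-CSF list, that of Csf2rb2, and in 7.18% of all.

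Ccl17, a chemokine that draws CCR4-bearing T cells, had 2962 and 5089.8 CPM in KO day 2 cells, against 0.643 and 1.21 CPM in KO monocytes (log2 fold change 12.07 ± 1.48, adjusted p = 0.000498). Ccl22, which binds the same receptor, had 5087 and 3532 CPM in KO day 2 cells, against 0.643 and 1.06 CPM in KO monocytes (log2 fold change 12.28 ± 0.89, adjusted p = 3.40e-05). Pdcd1lg2, the inhibitory ligand PD-L2, had 314 and 403 CPM in KO day 2 cells, against 0.143 and 0.142 CPM in KO monocytes (log2 fold change 11.19 ± 0.65, adjusted p = 1.84e-05). All 3 genes were below 2 CPM in each KO monocyte library. Egr2, a transcription factor gene induced by IL-4 in macrophages, had 191 and 149.5 CPM in KO day 2 cells, against 3.07 and 1.35 CPM in KO monocytes (log2 fold change 6.26 ± 1.22, adjusted p = 0.00605). Alox15, a lipoxygenase, had 184 and 723 CPM in KO day 2 cells, against 0.214 and 1.13 CPM in KO monocytes (log2 fold change 9.37 ± 1.92, adjusted p = 0.00763), with replicate 2 above replicate 1 by more than 3-fold. Arg1, the arginase of alternatively activated macrophages, stayed low with 13 and 20.8 CPM in KO day 2 cells, against 0.0714 and 0.0709 CPM in KO monocytes (log2 fold change 7.7 ± 1.94, adjusted p = 0.0208). Components of the pathway itself did not pass the test. Stat6 had 288 and 273 CPM in KO day 2 cells, against 359.8 and 384 CPM in KO monocytes (adjusted p = 0.301), and the receptor gene Il4ra had 94.2 and 130.5 CPM in KO day 2 cells, against 139 and 120.3 CPM in KO monocytes (adjusted p = 0.698). For Egr2 the adjusted p was 0.0805 leaving out KO monocytes replicate 2. For Alox15 the adjusted p was 0.0774 leaving out KO monocytes replicate 1 and 0.0616 leaving out KO monocytes replicate 2. For Arg1 the adjusted p was 0.0659 leaving out KO day 2 replicate 2, 0.128 leaving out KO monocytes replicate 1 and 0.143 leaving out KO monocytes replicate 2.

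Of 20 GM-CSF response genes tested, 11 were higher and none lower, with a median of 2.08. Cish and Socs2 encode feedback inhibitors that STAT5 switches on. Cish had 300.3 and 397 CPM in KO day 2 cells, against 1.43 and 2.41 CPM in KO monocytes (log2 fold change 7.5 ± 0.56, adjusted p = 3.40e-05), and Socs2 had 191 and 399.6 CPM in KO day 2 cells, against 0 and 0.213 CPM in KO monocytes (log2 fold change 11.3 ± 0.84, adjusted p = 3.40e-05). Mmp12, macrophage metalloelastase, had 3742 and 3007 CPM in KO day 2 cells, against 0.50 and 0.567 CPM in KO monocytes (log2 fold change 12.6 ± 1.03, adjusted p = 5.47e-05). Stat5a had 423 and 303 CPM in KO day 2 cells, against 70.5 and 76.7 CPM in KO monocytes (log2 fold change 2.3 ± 0.32, adjusted p = 0.000973). The receptor's shared beta chain Csf2rb had 2980.1 and 2582 CPM in KO day 2 cells, against 488 and 521 CPM in KO monocytes (log2 fold change 2.46 ± 0.47, adjusted p = 0.00536), and its close paralog Csf2rb2, the IL-3 receptor beta chain of the mouse, had 1380.4 and 1049 CPM in KO day 2 cells, against 84.9 and 98.4 CPM in KO monocytes (log2 fold change 3.73 ± 0.57, adjusted p = 0.00166). These 2 genes are similar in sequence, so reads may be split between them. The alpha chain Csf2ra, which binds GM-CSF itself, had 459.5 and 404 CPM in KO day 2 cells, against 425 and 246 CPM in KO monocytes (adjusted p = 0.679). For Csf2rb the adjusted p was 0.0585 leaving out KO monocytes replicate 1 and 0.0561 leaving out KO monocytes replicate 2.

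Of 29 dendritic cell maturation genes tested, 20 were higher and 2 lower, with a median of 4.16, or 3.08 with bounds. Traf1, a signalling adaptor of TNF receptors, had 267 and 213 CPM in KO day 2 cells, against 2.14 and 1.77 CPM in KO monocytes (log2 fold change 6.93 ± 0.33, adjusted p = 6.05e-06). The costimulatory genes Cd80 and Cd86 both rose. Cd86 had 153 and 128 CPM in KO day 2 cells, against 35.2 and 34 CPM in KO monocytes (log2 fold change 2.02 ± 0.44, adjusted p = 0.011), and Cd80 had 41.5 and 179.6 CPM in KO day 2 cells, against 4.93 and 7.45 CPM in KO monocytes (log2 fold change 4.16 ± 0.86, adjusted p = 0.00785). Cd83, a surface marker of mature dendritic cells, had 151 and 92.2 CPM in KO day 2 cells, against 3.29 and 0.496 CPM in KO monocytes (log2 fold change 6.0 ± 0.76, adjusted p = 0.000601). Ccr7, the receptor that takes mature dendritic cells to lymph nodes, had 98 and 9.08 CPM in KO day 2 cells, against 0.286 and 0 CPM in KO monocytes (log2 fold change 8.44 ± 1.95, adjusted p = 0.0139), so replicate 1 held over 10 times as much as replicate 2. Fscn1, the actin-bundling protein of mature dendritic cells, showed the same order with 107 and 23.6 CPM in KO day 2 cells, against 0 and 0.496 CPM in KO monocytes (log2 fold change 7.97 ± 2.0, adjusted p = 0.0232). Ebi3, a subunit of IL-27, had 33.5 and 49.4 CPM in KO day 2 cells, against 37 and 35.2 CPM in KO monocytes with overlapping groups (adjusted p = 0.834). For Ccr7 the adjusted p was 0.0677 leaving out KO day 2 replicate 1, 0.0787 leaving out KO monocytes replicate 1 and 0.124 leaving out KO monocytes replicate 2. For Fscn1 the adjusted p was 0.0772 leaving out KO day 2 replicate 1, 0.147 leaving out KO monocytes replicate 1 and 0.109 leaving out KO monocytes replicate 2. For Cd80 the adjusted p was 0.0505 leaving out KO day 2 replicate 2, 0.0784 leaving out KO monocytes replicate 1 and 0.0626 leaving out KO monocytes replicate 2. For Cd86 the adjusted p was 0.0789 leaving out KO monocytes replicate 1 and 0.0942 leaving out KO monocytes replicate 2.

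NF-kB target genes of inflammation rose in part. Of 22 tested, 11 were higher and none lower, with a median of 2.13. Nfkbie, an inhibitor of NF-kB, had 159 and 216 CPM in KO day 2 cells, against 23 and 22.5 CPM in KO monocytes (log2 fold change 3.05 ± 0.30, adjusted p = 0.000141). Icam1, the adhesion partner of LFA-1, had 312 and 292 CPM in KO day 2 cells, against 58.6 and 63 CPM in KO monocytes (log2 fold change 2.31 ± 0.33, adjusted p = 0.00124). Cxcl3, a neutrophil-attracting chemokine, had 64 and 46.3 CPM in KO day 2 cells and 0 reads in KO monocytes, at least 517-fold higher (adjusted p = 0.000359). Tnfrsf9, the costimulatory receptor 4-1BB, had 74 and 248 CPM in KO day 2 cells, at least 1509-fold higher (adjusted p = 0.000854). Of the inflammatory cytokine genes Il1b and Tnf, only Tnf was called higher. Il1b had 90.4 and 33.1 CPM in KO day 2 cells, against 21.6 and 10.4 CPM in KO monocytes (adjusted p = 0.167), and Tnf had 25 and 46.8 CPM in KO day 2 cells, against 9.14 and 16.8 CPM in KO monocytes (log2 fold change 1.47 ± 0.42, adjusted p = 0.037). Of 14 noncanonical NF-kB genes tested, 5 were higher and 1 lower. Cd40, the receptor for T cell help, had 355 and 198 CPM in KO day 2 cells, against 28.1 and 37.1 CPM in KO monocytes (log2 fold change 3.08 ± 0.36, adjusted p = 0.000366), Relb had 164 and 83.1 CPM in KO day 2 cells, against 30.2 and 45.2 CPM in KO monocytes (log2 fold change 1.71 ± 0.39, adjusted p = 0.0132), and Nfkb2 had 266 and 242 CPM in KO day 2 cells, against 89.7 and 125 CPM in KO monocytes (log2 fold change 1.24 ± 0.32, adjusted p = 0.0232). Ltbr, the lymphotoxin beta receptor, was the one that fell, with 62.9 and 57.1 CPM in KO day 2 cells, against 143 and 157 CPM in KO monocytes (log2 fold change -1.32 ± 0.25, adjusted p = 0.00471). For Tnf the adjusted p was 0.298 leaving out KO day 2 replicate 2, 0.227 leaving out KO monocytes replicate 1, 0.0599 leaving out KO monocytes replicate 2, 0.0519 with only the compared libraries in the fit and 0.050 with unstranded counts. For Relb the adjusted p was 0.115 leaving out KO day 2 replicate 1, 0.127 leaving out KO monocytes replicate 1 and 0.0501 leaving out KO monocytes replicate 2. For Nfkb2 the adjusted p was 0.104 leaving out KO day 2 replicate 1, 0.0866 leaving out KO day 2 replicate 2, 0.183 leaving out KO monocytes replicate 1 and 0.0738 leaving out KO monocytes replicate 2. For Ltbr the adjusted p was 0.0581 leaving out KO day 2 replicate 2.

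Among 33 myeloid transcription factors tested, 10 were higher and 7 lower. Bhlhe40 had 419 and 341 CPM in KO day 2 cells, against 19.1 and 12.6 CPM in KO monocytes (log2 fold change 4.59 ± 0.34, adjusted p = 3.40e-05). Irf4, which directs the monocyte towards the dendritic cell, had 339 and 637 CPM in KO day 2 cells, against 37.6 and 19.1 CPM in KO monocytes (log2 fold change 4.11 ± 0.55, adjusted p = 0.000847). Zeb1 had 40.2 and 40.6 CPM in KO day 2 cells, against 5.86 and 3.76 CPM in KO monocytes (log2 fold change 3.07 ± 0.33, adjusted p = 0.00027). On the other side, Klf4, which monocytes depend on, had 42.5 and 19.6 CPM in KO day 2 cells, against 469 and 333 CPM in KO monocytes (log2 fold change -3.7 ± 0.71, adjusted p = 0.00549), and Klf2 had 22 and 8.75 CPM in KO day 2 cells, against 194 and 179.6 CPM in KO monocytes (log2 fold change -3.62 ± 0.67, adjusted p = 0.00452). Cebpb, which sustains nonclassical monocytes, had 135 and 37.2 CPM in KO day 2 cells, against 528 and 618 CPM in KO monocytes (log2 fold change -2.74 ± 0.77, adjusted p = 0.0343). Spi1, the gene of the master regulator PU.1, had 416 and 425 CPM in KO day 2 cells, against 483 and 518 CPM in KO monocytes and did not pass the test (adjusted p = 0.526), nor did Irf5 with 658 and 719 CPM in KO day 2 cells, against 584 and 577 CPM in KO monocytes (adjusted p = 0.598). For Cebpb the adjusted p was 0.183 leaving out KO day 2 replicate 2, 0.0907 leaving out KO monocytes replicate 1, 0.126 leaving out KO monocytes replicate 2 and 0.0641 in the fit lacking the 2 stray libraries.

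Immediate early genes, which cells switch on within minutes of a stimulus, were called in both directions. Of 23 tested, 10 were lower in KO day 2 cells and 5 higher. The called genes named in this paragraph are all from those lower. Fos, a subunit of AP-1, had 8.84 and 4.01 CPM in KO day 2 cells, against 1676 and 1170.0 CPM in KO monocytes (log2 fold change -7.82 ± 1.09, adjusted p = 0.00106), and its partner Jun had 44.9 and 58.4 CPM in KO day 2 cells, against 426 and 306 CPM in KO monocytes (log2 fold change -2.82 ± 0.52, adjusted p = 0.00452). Ier2 had 17.3 and 21.2 CPM in KO day 2 cells, against 303 and 308 CPM in KO monocytes (log2 fold change -3.98 ± 0.32, adjusted p = 4.70e-05). Zfp36, which destabilises cytokine mRNA, had 119 and 91.5 CPM in KO day 2 cells, against 1478 and 1066 CPM in KO monocytes (log2 fold change -3.59 ± 0.53, adjusted p = 0.00134). Nr4a1 and Klf4, described above, are also on this list. Ier5 had 223 and 169.6 CPM in KO day 2 cells, against 308 and 263 CPM in KO monocytes (adjusted p = 0.296), and Klf6 had 261 and 276 CPM in KO day 2 cells, against 216 and 185 CPM in KO monocytes (adjusted p = 0.321).

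Genes of the cell cycle fell. Of 42 tested, 33 were lower and none higher, with a median of -1.86. The promoters of Ccnb2 and Ube2c are printed because the CCAAT letters searched in the class II genes, TGATTGG or their complement CCAATCA, also stood in 14 of the 35 cell cycle promoters in the table (40.0%), a list of which no gene was called higher.
Ccnb2, chr9:70421579-70421698, minus strand: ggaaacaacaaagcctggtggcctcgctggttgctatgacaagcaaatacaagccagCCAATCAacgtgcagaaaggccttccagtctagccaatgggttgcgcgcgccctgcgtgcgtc
Ube2c, chr2:164769813-164769897, plus strand: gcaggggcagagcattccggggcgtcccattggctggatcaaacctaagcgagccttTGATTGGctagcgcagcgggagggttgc
Ccnb2, cyclin B2, had 27.5 and 31 CPM in KO day 2 cells, against 171 and 201 CPM in KO monocytes (log2 fold change -2.67 ± 0.34, adjusted p = 0.000687). Ube2c, which helps to destroy mitotic cyclins, had 31 and 35.6 CPM in KO day 2 cells, against 141 and 192 CPM in KO monocytes (log2 fold change -2.32 ± 0.31, adjusted p = 0.000774), and Cdca3 had 31.8 and 38.9 CPM in KO day 2 cells, against 135 and 194 CPM in KO monocytes (log2 fold change -2.22 ± 0.29, adjusted p = 0.000742). Cdk1, the mitotic kinase, had 26.8 and 40.5 CPM in KO day 2 cells, against 111 and 168 CPM in KO monocytes (log2 fold change -2.04 ± 0.39, adjusted p = 0.00576). Top2a, topoisomerase II alpha, had 189.9 and 222 CPM in KO day 2 cells, against 754 and 889.7 CPM in KO monocytes (log2 fold change -2.0 ± 0.34, adjusted p = 0.00311), and Mki67, the Ki-67 antigen, had 474 and 423 CPM in KO day 2 cells, against 1056 and 942 CPM in KO monocytes (log2 fold change -1.16 ± 0.33, adjusted p = 0.0347). The values of these 6 genes were alike in the libraries of a group, and in no gene were they at 0 at day 2. Mcm3 and Mcm4, of the helicase that opens DNA for replication, did not pass the test. Mcm3 had 86.4 and 118 CPM in KO day 2 cells, against 192 and 254 CPM in KO monocytes (adjusted p = 0.0787), and Mcm4 had 56.5 and 90.6 CPM in KO day 2 cells, against 134 and 114 CPM in KO monocytes (adjusted p = 0.227). For Cdk1 the adjusted p was 0.0532 leaving out KO day 2 replicate 1 and 0.0533 leaving out KO monocytes replicate 2. For Mki67 the adjusted p was 0.142 leaving out KO day 2 replicate 1, 0.203 leaving out KO day 2 replicate 2, 0.145 leaving out KO monocytes replicate 1 and 0.122 leaving out KO monocytes replicate 2.

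Of 18 p53 target genes tested, 6 were higher and none lower. Cdkn1a, the inhibitor of cyclin-dependent kinases p21, had 616 and 828 CPM in KO day 2 cells, against 136 and 96.5 CPM in KO monocytes (log2 fold change 2.64 ± 0.37, adjusted p = 0.00112), and Ccng1, cyclin G1, had 205 and 279 CPM in KO day 2 cells, against 80.1 and 65.9 CPM in KO monocytes (log2 fold change 1.73 ± 0.32, adjusted p = 0.00449). Phlda3, an inhibitor of AKT, was much lower in level but also passed, with 11.2 and 12.5 CPM in KO day 2 cells, against 0 and 0.213 CPM in KO monocytes (log2 fold change 6.66 ± 0.76, adjusted p = 0.00051). Of 16 BCL2 family genes tested, 6 were higher and 1 lower. The survival gene Bcl2 had 22 and 30.5 CPM in KO day 2 cells, against 6.64 and 7.59 CPM in KO monocytes (log2 fold change 1.89 ± 0.28, adjusted p = 0.00139). Its relatives Bcl2a1a, Bcl2a1b and Bcl2a1d, near-identical copies among which reads may be misassigned, had larger values. Bcl2a1d had 249 and 293 CPM in KO day 2 cells, against 0.714 and 1.91 CPM in KO monocytes (log2 fold change 7.68 ± 0.53, adjusted p = 2.39e-05), Bcl2a1a had 132 and 142 CPM in KO day 2 cells, against 0.786 and 1.42 CPM in KO monocytes and Bcl2a1b had 65.7 and 70.8 CPM in KO day 2 cells, against 0.0714 and 0 CPM in KO monocytes. Mcl1, the survival factor of many myeloid cells, had 606 and 499 CPM in KO day 2 cells, against 806 and 639 CPM in KO monocytes (adjusted p = 0.454). For Ccng1 the adjusted p was 0.0625 leaving out KO monocytes replicate 2.

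In metabolism, sterol genes stood out. Of 24 cholesterol synthesis genes tested, 11 were higher and none lower, with a median of 1.2. Sqle, squalene epoxidase, had 79.7 and 99.5 CPM in KO day 2 cells, against 14.1 and 8.72 CPM in KO monocytes (log2 fold change 2.97 ± 0.41, adjusted p = 0.00104). Cyp51, lanosterol demethylase, had 125 and 129 CPM in KO day 2 cells, against 28.6 and 22.9 CPM in KO monocytes (log2 fold change 2.3 ± 0.32, adjusted p = 0.00105). Hmgcs1, which makes HMG-CoA, had 146 and 151 CPM in KO day 2 cells, against 45.6 and 33.1 CPM in KO monocytes (log2 fold change 1.91 ± 0.30, adjusted p = 0.00195), and Idi1, isopentenyl diphosphate isomerase, had 31.7 and 31 CPM in KO day 2 cells, against 4.36 and 4.68 CPM in KO monocytes (log2 fold change 2.79 ± 0.44, adjusted p = 0.0021). Srebf2, the gene of a transcription factor that controls sterol synthesis, had 357 and 391 CPM in KO day 2 cells, against 176 and 174 CPM in KO monocytes (adjusted p = 0.0633).

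Of 20 lipid handling genes tested, 6 were higher and 2 lower. Lpl, lipoprotein lipase, had 2719.7 and 2719 CPM in KO day 2 cells, against 129 and 98.4 CPM in KO monocytes (log2 fold change 4.58 ± 0.68, adjusted p = 0.00145), and Cd9, a tetraspanin, had 494 and 398 CPM in KO day 2 cells, against 12.4 and 12.6 CPM in KO monocytes (log2 fold change 5.16 ± 0.35, adjusted p = 1.94e-05). Cd36, the scavenger receptor for fatty acids and oxidised LDL, had 388 and 352 CPM in KO day 2 cells, against 0.643 and 3.4 CPM in KO monocytes (log2 fold change 7.51 ± 1.56, adjusted p = 0.00825), and Abca1, a cholesterol exporter, had 165 and 47.4 CPM in KO day 2 cells, against 7.14 and 6.95 CPM in KO monocytes (log2 fold change 3.91 ± 1.21, adjusted p = 0.0478). Scarb1, the HDL receptor, and Apoe, apolipoprotein E, were the genes that fell. Scarb1 had 38.4 and 52.2 CPM in KO day 2 cells, against 270.4 and 329 CPM in KO monocytes (log2 fold change -2.72 ± 0.33, adjusted p = 0.00048), and Apoe had 4.5 and 2.7 CPM in KO day 2 cells, against 183 and 129 CPM in KO monocytes (log2 fold change -5.47 ± 1.03, adjusted p = 0.0051). For Cd36 the adjusted p was 0.0759 leaving out KO monocytes replicate 1. For Abca1 the adjusted p was 0.225 leaving out KO day 2 replicate 1, 0.0614 leaving out KO day 2 replicate 2, 0.207 leaving out KO monocytes replicate 1, 0.226 leaving out KO monocytes replicate 2 and 0.0508 with unstranded counts. For Apoe the adjusted p was 0.0559 leaving out KO day 2 replicate 2.

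Energy metabolism moved in single genes. Of 24 glycolysis and hypoxia genes tested, 3 were higher and 2 lower. Pfkp, the platelet-type phosphofructokinase, had 837 and 1564 CPM in KO day 2 cells, against 144 and 158 CPM in KO monocytes (log2 fold change 2.99 ± 0.51, adjusted p = 0.00305), and Ldha, lactate dehydrogenase A, had 1183 and 2177 CPM in KO day 2 cells, against 340.1 and 516 CPM in KO monocytes (log2 fold change 1.97 ± 0.44, adjusted p = 0.0117). Gapdh had 823 and 941 CPM in KO day 2 cells, against 1168 and 1365 CPM in KO monocytes (adjusted p = 0.225). Of 38 respiratory chain genes tested, none was called in either direction. Of 18 genes of amino acid response and one-carbon metabolism, 4 were higher and 2 lower. Slc7a11 and Slc3a2 encode the 2 chains of the cystine-glutamate exchanger. Slc7a11 had 802 and 406 CPM in KO day 2 cells, against 1.57 and 0 CPM in KO monocytes (log2 fold change 9.57 ± 1.4, adjusted p = 0.00133), and Slc3a2 had 276 and 265 CPM in KO day 2 cells, against 73.1 and 75.7 CPM in KO monocytes (log2 fold change 1.86 ± 0.32, adjusted p = 0.00331). Mthfd1l, of mitochondrial one-carbon metabolism, had 19.7 and 22.2 CPM in KO day 2 cells, against 69.2 and 92.2 CPM in KO monocytes (log2 fold change -1.94 ± 0.36, adjusted p = 0.00442). Of 22 genes of the unfolded protein response, only Herpud1 was called, higher with 317 and 298 CPM in KO day 2 cells, against 89.9 and 100 CPM in KO monocytes (log2 fold change 1.7 ± 0.34, adjusted p = 0.00696). For Ldha the adjusted p was 0.0965 leaving out KO day 2 replicate 2, 0.107 leaving out KO monocytes replicate 1 and 0.0523 leaving out KO monocytes replicate 2. For Herpud1 the adjusted p was 0.069 leaving out KO monocytes replicate 1 and 0.0599 leaving out KO monocytes replicate 2.

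Genes by which monocytes sense microbes and interferon did not rise as lists. Of 38 interferon-stimulated genes tested, none was higher and 2 were lower. These were Ifitm3, which blocks virus entry, with 118 and 35.6 CPM in KO day 2 cells, against 1090.1 and 1218 CPM in KO monocytes (log2 fold change -3.91 ± 0.90, adjusted p = 0.0138), and the nucleic acid sensor Zbp1 with 34.8 and 21.6 CPM in KO day 2 cells, against 159.6 and 164 CPM in KO monocytes (log2 fold change -2.52 ± 0.62, adjusted p = 0.0182). The median of the list was -1.0, and the number lower was 6 with DESeq2, 12 with only the compared libraries in the fit and 11 in the fit lacking the 2 stray libraries. Of 18 Toll-like receptors and adaptors tested, none was higher and 3 were lower, among them Tlr13, a sensor of bacterial ribosomal RNA, with 50.5 and 13.3 CPM in KO day 2 cells, against 298 and 245 CPM in KO monocytes (log2 fold change -3.1 ± 0.73, adjusted p = 0.0151). Of 7 NADPH oxidase genes tested, 2 were lower. Rac2, a GTPase of the oxidase, had 203 and 228 CPM in KO day 2 cells, against 712 and 668 CPM in KO monocytes (log2 fold change -1.68 ± 0.34, adjusted p = 0.00722). Cybb, the catalytic subunit, had 1317 and 178 CPM in KO day 2 cells, against 2153 and 2194 CPM in KO monocytes, so replicate 1 held over 7 times as much as replicate 2 (adjusted p = 0.332). Of 8 Fc receptor genes, 3 were higher and 2 lower. Fcgr2b, the inhibitory receptor for IgG, had 444 and 634 CPM in KO day 2 cells, against 223 and 182 CPM in KO monocytes (log2 fold change 1.41 ± 0.31, adjusted p = 0.0112), while Fcgr1, the high-affinity receptor, had 6.34 and 42.9 CPM in KO day 2 cells, against 168 and 139.6 CPM in KO monocytes (log2 fold change -2.62 ± 0.77, adjusted p = 0.0398). For Ifitm3 the adjusted p was 0.0933 leaving out KO day 2 replicate 2 and 0.0544 leaving out KO monocytes replicate 2. For Zbp1 the adjusted p was 0.0522 leaving out KO day 2 replicate 1, 0.122 leaving out KO day 2 replicate 2, 0.0639 leaving out KO monocytes replicate 1 and 0.0734 leaving out KO monocytes replicate 2. For Tlr13 the adjusted p was 0.0812 leaving out KO day 2 replicate 2 and 0.0628 leaving out KO monocytes replicate 1. For Rac2 the adjusted p was 0.0691 leaving out KO day 2 replicate 1 and 0.0507 leaving out KO day 2 replicate 2. For Fcgr2b the adjusted p was 0.112 leaving out KO day 2 replicate 2, 0.0568 leaving out KO monocytes replicate 1 and 0.123 leaving out KO monocytes replicate 2. For Fcgr1 the adjusted p was 0.129 leaving out KO day 2 replicate 1, 0.127 leaving out KO monocytes replicate 1, 0.118 leaving out KO monocytes replicate 2, 0.0689 with only the compared libraries in the fit and 0.0833 in the fit lacking the 2 stray libraries.

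Of 13 chemokine receptors tested, 4 were higher and 3 lower. Cxcr2, the receptor by which neutrophils follow CXC chemokines, had 321 and 496 CPM in KO day 2 cells, against 2.43 and 0.922 CPM in KO monocytes (log2 fold change 7.92 ± 1.63, adjusted p = 0.00792). The 20 genes of the neutrophil list, of which Cxcr2 itself is 1, summed to 1182 and 1976 CPM in KO day 2 cells, against 3113 and 2586 CPM in KO monocytes. The part of neutrophils in the Cxcr2 value was not tested. For Cxcr2 the adjusted p was 0.059 leaving out KO monocytes replicate 1 and 0.091 leaving out KO monocytes replicate 2.

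Macrophage and tissue-remodelling genes also moved. Of 20 macrophage identity genes tested, 7 were higher and 2 lower. C1qb, a chain of complement C1q, had 28.2 and 26.3 CPM in KO day 2 cells, against 2.14 and 1.21 CPM in KO monocytes (adjusted p = 0.000564), and C1qc, another chain, had 15.2 and 18.7 CPM in KO day 2 cells, against 0.643 and 1.7 CPM in KO monocytes (adjusted p = 0.000594). Axl, a receptor for apoptotic cells, had 360.3 and 874 CPM in KO day 2 cells, against 28.2 and 35.5 CPM in KO monocytes (log2 fold change 4.28 ± 0.63, adjusted p = 0.0014), and Gpnmb, a glycoprotein of lipid-laden macrophages, had 493 and 138 CPM in KO day 2 cells, against 3.64 and 2.2 CPM in KO monocytes (log2 fold change 6.75 ± 1.0, adjusted p = 0.00141). The 2 genes differed between the day 2 libraries in opposite directions. Csf1r, the receptor for M-CSF, had 1403 and 932 CPM in KO day 2 cells, against 1163 and 1464 CPM in KO monocytes with overlapping groups (adjusted p = 0.845). Other members of the list lay lower. Fcgr1, given above with the Fc receptors, was 1 of the 2 called lower. Cd68 had 227 and 161 CPM in KO day 2 cells, against 340 and 384 CPM in KO monocytes, and did not pass the test (adjusted p = 0.107). Of 16 matrix proteases and inhibitors tested, 10 were higher and none lower, with a median of 5.67, or 5.49 with bounds. Besides Mmp12, Adam8 had 1027 and 1213 CPM in KO day 2 cells, against 17 and 16.9 CPM in KO monocytes (log2 fold change 6.05 ± 0.50, adjusted p = 5.84e-05) and the protease inhibitor Spint1 had 165 and 265 CPM in KO day 2 cells, against 0.0714 and 0.213 CPM in KO monocytes (log2 fold change 10.46 ± 0.99, adjusted p = 0.00011). Of 8 osteoclast genes tested, 4 were higher and none lower. Dcstamp, which is needed for cell fusion in osteoclasts and in giant cells, had 252 and 293 CPM in KO day 2 cells, against 0.0714 and 0 CPM in KO monocytes (log2 fold change 12.52 ± 1.76, adjusted p = 0.0011). Atp6v0d2, a proton pump subunit, had 40.4 and 19.2 CPM in KO day 2 cells and 0 reads in KO monocytes, at least 279-fold higher (adjusted p = 0.0042).

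Of 21 genes of actin and migration tested, 5 were higher and 3 lower. Actn1, the actin crosslinker alpha-actinin 1, had 439 and 467 CPM in KO day 2 cells, against 9.78 and 7.02 CPM in KO monocytes (log2 fold change 5.75 ± 0.52, adjusted p = 8.34e-05), and Marcks, which ties actin to the membrane, had 409.9 and 244 CPM in KO day 2 cells, against 43.6 and 29.1 CPM in KO monocytes (log2 fold change 3.17 ± 0.46, adjusted p = 0.00134). Cdc42ep3, an effector of the GTPase CDC42, had 17.3 and 11 CPM in KO day 2 cells, against 98.1 and 99.8 CPM in KO monocytes (log2 fold change -2.81 ± 0.32, adjusted p = 0.000345). Of 26 lysosome and cathepsin genes, 3 were higher and 3 lower. Ctsc, the protease that activates granule enzymes, had 348 and 295 CPM in KO day 2 cells, against 1239.8 and 1183 CPM in KO monocytes (log2 fold change -1.91 ± 0.32, adjusted p = 0.00276), and Psap, the precursor of the saposins, had 8489 and 6269 CPM in KO day 2 cells, against 9264 and 10117 CPM in KO monocytes (adjusted p = 0.567). Of 11 retinoid genes, 2 were higher and 3 lower. Dhrs9, a retinol dehydrogenase, rose, with 73.4 and 314 CPM in KO day 2 cells, against 0.357 and 0.496 CPM in KO monocytes (log2 fold change 8.79 ± 1.33, adjusted p = 0.0016). Its 2 day 2 libraries differed 4.28-fold. Rxrb and Dhrs3 were among the lower ones. Rxrb had 45.4 and 32.4 CPM in KO day 2 cells, against 105 and 105.2 CPM in KO monocytes. Dhrs3 had 10.8 and 2.54 CPM, against 37.2 and 27.6 CPM. Fits with a library left out are not given for Rxrb and Dhrs3.

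**Figure D3:**
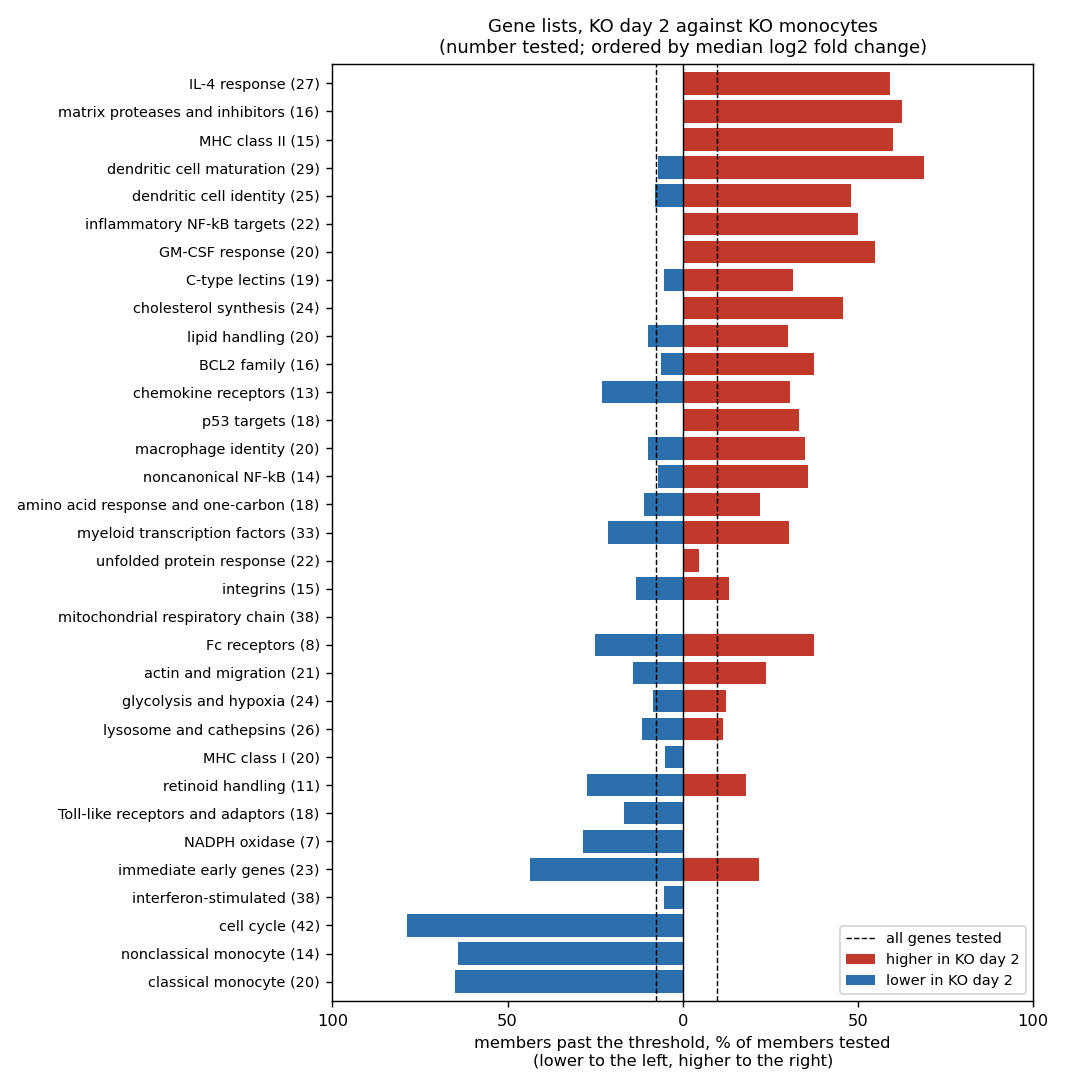
Share of the tested members of each gene list called higher (red, to the right) or lower (blue, to the left) in KO day 2 cells, with the number tested in brackets; dashed lines mark the shares over all genes tested, 9.95% higher and 7.57% lower. Lists are ordered by median log2 fold change, with cell cycle and monocyte lists toward one end and class II, IL-4 and maturation lists toward the other.

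The 2 KO day 2 libraries differed from each other more than the 2 KO monocyte libraries did. Of 6995 genes with a mean of at least 20 CPM in KO day 2 cells, 512 (7.32%) differed by more than 2-fold between the 2 libraries and 128 by more than 4-fold. In KO monocytes this held for 100 of 6863 genes (1.46%), and for 6 genes over 4-fold. WT day 2 cells, whose libraries also comprise 1 female and 1 male, had 449 of 6974 genes (6.44%) over 2-fold. WT monocytes, whose libraries were both male by Xist and Ddx3y, had 1778 of 6873 genes (25.9%) over 2-fold. Replicate 2 of the WT monocytes is 1 of the 2 stray libraries. Outside Xist and Y-linked genes, the named genes farthest apart between the KO day 2 libraries were on autosomes. Apol7c had 491 and 12 CPM in replicates 1 and 2 of KO day 2 and 533 and 42.6 CPM in those of WT day 2. Aqp3, a water and glycerol channel, had 23.3 and 438 CPM in KO day 2 and 12.7 and 189 CPM in WT day 2. Hs3st3b1, a heparan sulfate sulfotransferase, had 4.17 and 76.7 CPM in KO day 2 and 2.65 and 49.9 CPM in WT day 2. All 3 were called higher at day 2 in the KO cells, against 0 and 0.0709 CPM, 0 and 0.0709 CPM and 1.07 and 1.49 CPM in KO monocytes (adjusted p = 0.0186, 0.0122 and 0.0374). In each of these genes the same replicate number was high in KO and in WT cells. Across all genes tested, deviations of same-numbered KO and WT day 2 libraries from their group means correlated at 0.657. The part of sex or of the experiment in these differences was not tested. For Apol7c the adjusted p was 0.0749 leaving out KO day 2 replicate 1, 0.129 leaving out KO monocytes replicate 1 and 0.132 leaving out KO monocytes replicate 2. For Aqp3 the adjusted p was 0.0536 leaving out KO day 2 replicate 2, 0.101 leaving out KO monocytes replicate 1 and 0.105 leaving out KO monocytes replicate 2. For Hs3st3b1 the adjusted p was 0.527 leaving out KO day 2 replicate 2, 0.193 leaving out KO monocytes replicate 1, 0.188 leaving out KO monocytes replicate 2, 0.051 with only the compared libraries in the fit and 0.0987 in the fit lacking the 2 stray libraries.

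**Figure D4:**
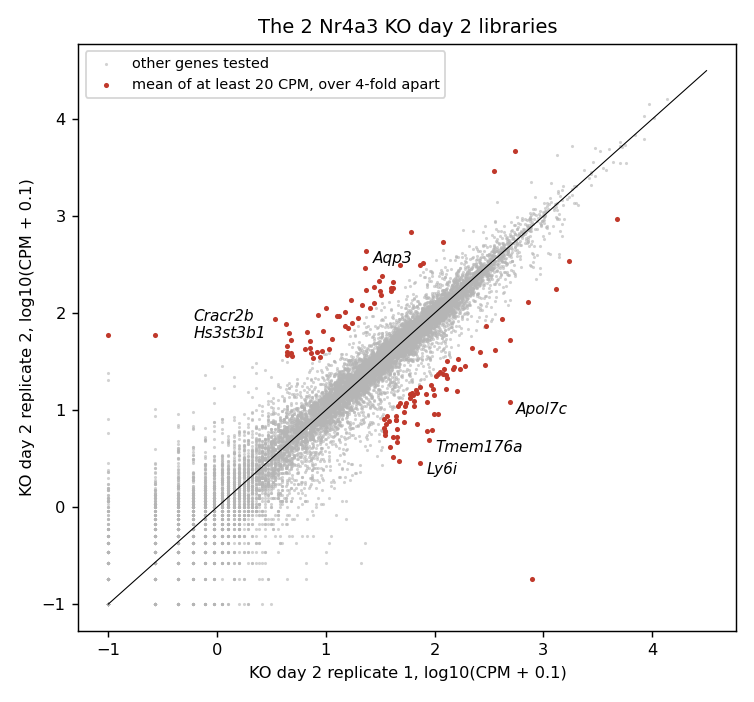
Log10(CPM + 0.1) in KO day 2 replicate 2 (vertical axis) against replicate 1 (horizontal axis) for the genes tested, with the line of equality. Red points are genes with a mean of at least 20 CPM that differ by more than 4-fold, 128 in all; the 6 named genes are the farthest apart outside Xist and Y-linked genes.

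To ask whether KO cells changed differently from WT cells, the KO change was set against the WT change. In WT cells 1778 genes (12.7%) were higher and 1388 (9.89%) lower at day 2 than in monocytes. Of the genes called higher in KO cells, 1104 were also called higher in WT cells, which is 79.1% of the KO calls and 62.1% of the WT calls. For genes called lower, 887 were shared, 83.4% of the KO calls and 63.9% of the WT calls. Genes called in 1 genotype alone are not thereby shown to differ. The difference of the 2 changes was tested as an interaction, and 4 of 14034 genes (0.0285%) passed, all with a smaller value in KO cells. None passed in the other direction with edgeR, against 150 there at an unadjusted p under 0.05 and 1 with DESeq2. In both directions together 93 genes passed without a low-count filter, 35 with DESeq2, 7 with the replicate number as a block, and 0 with only the compared libraries in the fit. Leaving out 1 library gave 0 to 58, the most without WT monocytes replicate 1.

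**Figure D5:**
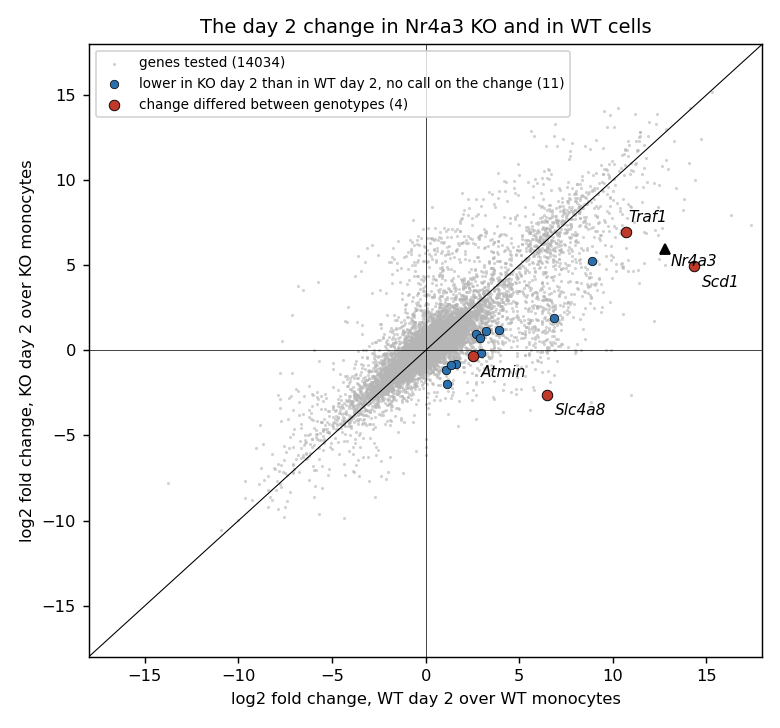
Log2 fold change of KO day 2 cells over KO monocytes (vertical axis) against that of WT day 2 cells over WT monocytes (horizontal axis) for the 14034 genes tested, with the line of equality. Red points are the 4 genes whose change differed between genotypes, blue points other genes called lower in KO day 2 than in WT day 2 cells, and the triangle is Nr4a3; all red points lie below the line.

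Slc4a8, a sodium-driven bicarbonate transporter, had 0.50 and 0.327 CPM in KO day 2 cells, against 3.43 and 1.49 CPM in KO monocytes, and 97.3 and 89.5 CPM in WT day 2 cells, against 0.613 and 1.48 CPM in WT monocytes. It fell in KO cells (log2 fold change -2.61 ± 0.66, adjusted p = 0.0216). For Slc4a8 the adjusted p of this fall was 0.0683 leaving out KO day 2 replicate 1, 0.183 leaving out KO day 2 replicate 2, 0.133 leaving out KO monocytes replicate 1 and 0.0766 with only the compared libraries in the fit. It rose in WT cells, and the difference of the log2 changes was -9.12 ± 0.87, adjusted p = 0.00925. Scd1, the desaturase that makes oleate, rose in both genotypes. It had 22.3 and 30.5 CPM in KO day 2 cells, against 0.714 and 0.993 CPM in KO monocytes, and 218 and 228 CPM in WT day 2 cells, against 0 reads in both WT monocytes (difference -9.4 ± 0.97, adjusted p = 0.0195, a size that depends on the prior count since WT monocytes had no reads). Atmin, a transcription factor gene, had 42.9 and 37.5 CPM in KO day 2 cells, against 53.9 and 48.7 CPM in KO monocytes, and 213 and 195 CPM in WT day 2 cells, against 39.8 and 29.4 CPM in WT monocytes (difference -2.91 ± 0.36, adjusted p = 0.0266). Traf1 rose in both, and its difference came with a lower level in WT monocytes. Its WT values were 362 and 425 CPM in WT day 2 cells, against 0.23 and 0.211 CPM in WT monocytes (difference -3.8 ± 0.47, adjusted p = 0.0266). With each of the 8 libraries left out in turn, the adjusted p of the difference ran over 0.05 in 2 fits for Slc4a8 (range 0.00865 to 0.0584 over all 8), in 6 for Scd1 (0.0368 to 0.149), in 7 for Atmin (0.0329 to 0.389) and in 7 for Traf1 (0.0374 to 0.288). With unstranded counts it was 0.154 for Traf1, and with only the compared libraries in the fit it was over 0.05 for all 4 genes, from 0.0797 for Slc4a8 to 0.141 for Atmin and Traf1. In the fit lacking the 2 stray libraries it was 0.151 for Traf1. Compared directly, without pairing by replicate number, KO day 2 cells had 14 genes lower than WT day 2 cells (0.0998%) and none higher with edgeR. In the higher direction 86 genes passed at an unadjusted p under 0.05, and 1 with DESeq2. Among the 14 were Slc4a8, Scd1 and Atmin but not Traf1 (log2 fold change -0.71 ± 0.25, adjusted p = 0.93). Map3k14, the kinase NIK of the noncanonical NF-kB pathway, was another, with 55 and 33.4 CPM in KO day 2 cells, against 389 and 342 CPM in WT day 2 cells (log2 fold change -3.05 ± 0.38, adjusted p = 0.0249). In KO cells alone Map3k14 had 55 and 33.4 CPM in KO day 2 cells, against 53.2 and 43.8 CPM in KO monocytes with overlapping groups (adjusted p = 0.831).

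Cd74, H2-Aa, H2-Ab1 and H2-Eb1 did not pass the direct test of KO day 2 against WT day 2, which did not pair libraries by replicate number. Cd74 had 13671 and 16073 CPM in KO day 2 cells, against 11093 and 10411 CPM in WT day 2 cells (log2 fold change 0.47 ± 0.33, adjusted p = 1.0), and its change over the monocytes did not pass as different (difference 0.10 ± 0.47, adjusted p = 1.0). H2-Aa had 5093 and 5342 CPM in KO day 2 cells, against 3573 and 2786 CPM in WT day 2 cells (log2 fold change 0.71 ± 0.42, adjusted p = 1.0), H2-Ab1 had 4027 and 4969 CPM in KO day 2 cells, against 2512 and 2303 CPM in WT day 2 cells (log2 fold change 0.90 ± 0.40, adjusted p = 1.0), and H2-Eb1 had 5264 and 5112 CPM in KO day 2 cells, against 3274 and 2411 CPM in WT day 2 cells (log2 fold change 0.87 ± 0.42, adjusted p = 1.0). Ccr7 and Aldh1a2 did not pass a test between the genotypes either. Ccr7 had 98 and 9.08 CPM in KO day 2 cells, against 853 and 739 CPM in WT day 2 cells (difference of the log2 changes -3.98 ± 3.68, adjusted p = 1.0). Aldh1a2, which makes retinoic acid, had 15.3 and 0.654 CPM in KO day 2 cells, against 2377 and 1359.9 CPM in WT day 2 cells, and in KO monocytes 0.0714 and 0 CPM (difference -10.04 ± 6.18, adjusted p = 1.0; KO day 2 over WT day 2 -7.94 ± 1.19, adjusted p = 0.0545). Both WT monocyte libraries had 0 CPM of Aldh1a2, so the size and error of its difference between genotypes depend on the prior count. Aldh1a2 was called higher at day 2 within KO cells (log2 fold change 7.36 ± 1.64, adjusted p = 0.0138). For Aldh1a2 the adjusted p of this rise was 0.0798 leaving out KO monocytes replicate 1, 0.111 leaving out KO monocytes replicate 2 and 0.0501 in the fit lacking the 2 stray libraries. A p over the threshold does not show that these genes behave alike in the 2 genotypes.

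Markers of other cells that a monocyte sort could hold were summed per library. The 20 neutrophil genes gave 1 call higher, that of Cxcr2, and 7 lower. Among the lower ones were Mpo, myeloperoxidase, with 4.67 and 5.48 CPM in KO day 2 cells, against 148 and 136 CPM in KO monocytes, and Elane, neutrophil elastase, with 1.5 and 2.7 CPM in KO day 2 cells, against 124 and 112 CPM in KO monocytes. B cell genes summed to 156 and 69.4 CPM in KO day 2 cells, against 481 and 435 CPM in KO monocytes, most of it Blnk at day 2 and Ighm in monocytes. Blnk, an adaptor of the B cell receptor, rose with 116 and 49.4 CPM in KO day 2 cells, against 0.928 and 0.709 CPM in KO monocytes (log2 fold change 6.63 ± 0.92, adjusted p = 0.00101), and Ighm, the IgM heavy chain, fell with 23.7 and 11.6 CPM in KO day 2 cells, against 469 and 415 CPM in KO monocytes (log2 fold change -4.66 ± 0.51, adjusted p = 0.00027). Erythroid genes summed to 397 and 348 CPM in KO day 2 cells, against 75.7 and 46 CPM in KO monocytes, most of it at day 2 the transferrin receptor gene Tfrc, which rose with 262 and 293 CPM in KO day 2 cells, against 13.3 and 7.23 CPM in KO monocytes (log2 fold change 4.76 ± 0.63, adjusted p = 0.000755). Megakaryocyte genes summed to 27 and 47.6 CPM in KO day 2 cells, against 2.07 and 5.39 CPM in KO monocytes, and Pf4 among them rose with 13.2 and 24.9 CPM in KO day 2 cells, against 0.0714 and 0.0709 CPM in KO monocytes (log2 fold change 7.87 ± 1.07, adjusted p = 0.000885). T cell genes summed to 14.8 and 11.6 CPM in KO day 2 cells, against 3.86 and 7.59 CPM in KO monocytes, and NK cell genes to 15 and 19.6 CPM in KO day 2 cells, against 10.6 and 10.3 CPM in KO monocytes, with Klrb1c, Ncr1 and Prf1 at 0 in all 4 libraries. Genes of basophils, mast cells and eosinophils summed to 61.7 and 78.9 CPM in KO day 2 cells, against 15.2 and 29.4 CPM in KO monocytes. Plasmacytoid dendritic cell genes summed to 209 and 169.8 CPM in KO day 2 cells, against 135 and 121 CPM in KO monocytes, progenitor genes to 112 and 148 CPM in KO day 2 cells, against 45.1 and 45 CPM in KO monocytes, and stromal genes to 62.7 and 42.5 CPM in KO day 2 cells, against 35.6 and 33.8 CPM in KO monocytes. Their part in the results was not tested.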

How the data were processed

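Poly(A) RNA was measured in 12 libraries, with groups and numbering taken from the labels. Per the labels' protocols, the kit keeps strand, each library began from 20 ng RNA and was amplified for 16 PCR cycles, and an Illumina HiSeq2000 read it. Trimmomatic 0.35, STAR 2.5.1b and the build GRCm38 are named in the submitters' processing notes. The authors deposited whole-number read counts per gene, not normalized, in the layout of STAR's gene counts, and the column for a reverse-stranded kit was used. Of 47643 gene IDs, 47224 matched GENCODE M21. Lines that name no gene stayed out of library sizes and tests, and held 1.34% to 11.2% of the reads of a library each. Reads that map to several places were not counted, so near-identical genes are undercounted.

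The test was edgeR 4.0.16 (R 4.3.3) on TMM-scaled counts after filterByExpr on the groups, with 1 mean per group over all 12 libraries, robust quasi-likelihood dispersion and 6 residual degrees of freedom. It was two-sided, adjusted by Benjamini-Hochberg over 14034 genes, with an adjusted p threshold of 0.05. The value after ± is an approximate standard error, the size of the log2 fold change divided by the square root of the test's F statistic. The spread behind it is pooled over all 12 libraries, with 2 libraries per group. Where a group had no reads, it depends on the prior count. The groups' spread is that between these samples, since no label names the mice behind a library. The script was tested on simulated data. A group with no read of a gene was given 3 counts as its upper limit. Such limits cover counting error only.

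Members and gene lists were chosen with earlier results of these data known, and lists are described by counts and medians without a test. Named genes are those with the largest changes (mean of at least 5 CPM over the 4 libraries), the NR4A genes, up to 4 called members of a list with the smallest adjusted p and up to 2 uncalled ones with the highest mean CPM, the smallest adjusted p of the interaction, the most read genes per kilobase, and those farthest apart between the KO day 2 libraries. Some genes this rule names are not reported here. Fn1, Ly6c2, Ccr2, Batf3, Irf8, Ciita, H2-DMa, H2-DMb2, Egr2, Alox15, Arg1, Il4ra, Csf2rb, Csf2rb2, Cd80, Cd83, Cd86, Fscn1, Il1b, Tnf, Nfkb2, Klf2, Klf4, Cebpb, Jun, Cdk1, Top2a, Mki67, Cd36 and Abca1 fell outside this rule and were chosen after their values were seen. Alternatives were RLE and upper-quartile factors, no low-count filter, DESeq2 1.42.0, a fit on the compared libraries, the replicate number as a block, unstranded counts and leaving out libraries.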

Additional observations from a re-analysis of the deposited data

Results flagged for a closer look

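The day 2 change differed between KO and WT cells in 4 genes, tested as the difference of the 2 log2 changes with edgeR. Slc4a8 had a difference of -9.12 (adjusted p = 0.00925), with both KO day 2 libraries below both KO monocyte libraries and both WT day 2 libraries far above both WT monocyte libraries. Scd1 had -9.40 (adjusted p = 0.0195), with a rise in both genotypes and 0 reads in WT monocytes. Atmin had -2.91 (adjusted p = 0.0266), with a rise in WT cells and no call in KO cells. Traf1 had -3.80 (adjusted p = 0.0266), with a rise in both genotypes. With only the compared libraries in the fit, the adjusted p of the 4 genes ran from 0.0797 for Slc4a8 to 0.141 for Atmin and Traf1, with differences from -9.26 to -2.89. In the fit lacking the 2 stray libraries (the one labelled KO day 1 replicate 1 and replicate 2 of the WT monocytes) it was 0.0227 for Slc4a8, 0.0498 for Scd1 and Atmin, and 0.151 for Traf1. With DESeq2 it was 4.30e-16 for Slc4a8, 5.32e-05 for Scd1, 2.51e-09 for Atmin and 0.00114 for Traf1.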

How the results depend on the processing

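The direction of 146 named genes called in KO day 2 cells against KO monocytes was the same under every alternative run. With KO day 2 replicate 1 or 2 left out, 14 or 27 of them missed the threshold, and with KO monocytes replicate 1 or 2 left out 34 or 36, where the lone library of a group is assumed to vary like the other groups. Leaving out 1 KO library gave 527 to 875 genes higher and 400 to 560 lower, and leaving out 1 WT library 1138 to 1919 higher and 897 to 1422 lower. The difference between genotypes gave 0 to 58 over all 8 left-out libraries. Each of these fits had fewer samples. The count of genes lower was 1706 with only the compared libraries in the fit and 1844 in the fit lacking the 2 stray libraries. The difference between genotypes gave 93 genes with no low-count filter, 35 with DESeq2, 0 with only the compared libraries and 7 with the replicate number as a block. The causes were not tested. Deviations of same-numbered KO day 2 and KO monocyte libraries correlated at 0.0302, so these share only a number. The replicate block gave 1597 genes higher and 1323 lower, and 1 named gene lost its call, Hs3st3b1 at an adjusted p of 0.0641. Scaling by upper-quartile factors moved the median log2 fold change of all genes to 0.15, against 0.08 with TMM. None of the 13 list medians printed changed sign, and 0 to 4 moved by more than the spread between libraries under 1 alternative. Uncalled values changed sign with 1 library left out. The range was -0.44 to 0.042 for Actb, -0.47 to 0.081 for Csf1r, -0.12 to 0.48 for Ebi3, -0.47 to 0.035 for Il4ra, -0.52 to 0.17 for Map3k14, -0.82 to 1.48 for Nr4a2, -1.18 to 0.18 for Sirpa, and -0.042 to 0.23 for the difference of Cd74 between genotypes. With the block Nr4a2 was at 0.42. With 5905266 reads, KO day 2 replicate 1 limits what low genes can show.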
